A study of Mus musculus with 12 samples.

Results

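A small set of structural RNAs took more of the TPM (transcript abundance per unit length, scaled to a fixed sum in each library) of these libraries than any other genes did: Rn7s1 and Rn7s2, the 2 copies of the 7SL RNA gene, Rn7sk (7SK), Rpph1 (the RNA of RNase P) and Rmrp (the RNA of RNase MRP). They are 5 of the 45792 genes in the deposited files. All 5 were among the 15706 genes with enough counts to be tested. They were chosen by their share of the TPM, so that their levels are given as a description and without a test. The differences between groups and the ratios of one RNA to another were not used to choose them, although both had been looked at in part before the choice was made.

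These RNAs are noncoding, short and folded, they work in particles with proteins, and RNA polymerase III makes them. The 7SL RNA is the scaffold of the signal recognition particle (SRP), which brings ribosomes that are making secreted and membrane proteins to the endoplasmic reticulum, and the 7SK RNA holds the elongation factor P-TEFb in an inactive particle in the nucleus. RNase P trims the 5′ ends of precursor tRNAs, and RNase MRP, which shares most of its proteins, cleaves precursor rRNA. None of the 4 RNAs ends in the long poly(A) tail of an mRNA, and all are seen in total RNA libraries from which the ribosomal RNA has been removed, as was done here.

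The data are RNA-seq of 12 primary cultures of neural stem cells (NSCs) from the forebrain of neonatal mouse pups, in 3 groups of 4 libraries: WT NSCs, vehicle-treated NSCs that lack Ncf1 (Ncf1-/-), and Ncf1-/- NSCs given recombinant mouse Igfbp2. Ncf1 is an organizer subunit of the NADPH oxidase Nox2, and Igfbp2 is a secreted binding protein of the insulin-like growth factors. The labels give the dose as 100 ng/ml and the treatment of the vehicle group as none, and the methods of the study give another dose. Per the methods, all cultures were low-passage cells of single pups on a C57BL/6J background. They were grown with EGF and FGF for 48 h, and RNA was taken after a further 48 h. The question was how loss of Ncf1, and Igfbp2 given to cells without it, changed the RNA of NSCs. A culture holds a mixture of cells, and fewer cells of one type and less RNA per cell cannot be told apart in such libraries.

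The libraries held 18201622 to 34086554 expected counts. Some went against the labels. The methods say that the vehicle-treated and Igfbp2-treated cultures of a number came from 1 pup, but the summed level of Uty, Kdm5d, Eif2s3y and Ddx3y, 4 genes of the Y chromosome, was 105.3 to 115.5 CPM (counts scaled to a fixed sum per library) in the 4 vehicle-treated libraries and 7.795 to 9.181 CPM in the 4 Igfbp2-treated ones, with Xist at 72.3 to 87.8 CPM against 165.7 to 274.6 CPM. The effect of Igfbp2 and sex-linked expression therefore cannot be told apart here. WT replicate 12 had Y-linked genes at 6.458 CPM and Xist at 290.8 CPM, against 106.8 to 118.3 CPM and 3.866 to 5.22 CPM in the other WT libraries. The vehicle-treated libraries thus had Y-linked genes at about the level of those other WT libraries together with more Xist. Whether each library came from a single pup was not tested. A second sample list of the study gives library 12 to a treated WT culture, so that the edgeR differences of these RNAs from WT, their ratios and their shares are given with and without it, whereas the TPM differences from WT and the single genes of the lists are given with it. Ncf1 itself had 1 to 7 counts per library, which is too few to check the genotype. The 10 markers of NSCs had a summed TPM of 1740 to 6400 in WT, 5233 to 6549 in vehicle-treated and 3398 to 4740 in Igfbp2-treated Ncf1-/- NSCs. They moved between the genotypes, with 7 called lower and 2 higher in vehicle-treated NSCs than in WT by edgeR (median log2 difference −0.46) and 6 lower and 2 higher in Igfbp2-treated NSCs than in WT (median −0.41). Markers of microglia (0.15 to 0.79 summed TPM, with Cx3cr1, Aif1, C1qa and Tmem119 at 3 counts or fewer in every library), endothelial cells (0.31 to 0.85) and mesenchymal cells (0.42 to 3.15) were near 0. The summed levels of the 6 oligodendrocyte markers (544.8 to 3031 summed TPM in WT, 71.13 to 80.51 in vehicle-treated and 55.97 to 72.72 in Igfbp2-treated Ncf1-/- NSCs), the 5 astrocyte markers (1296 to 3187, 536.3 to 596.8 and 419.7 to 513.1) and the 5 neuron markers (19.96 to 30.57, 7.18 to 8.44 and 2.97 to 5.52) were lower in Ncf1-/- NSCs. By edgeR, all 6 oligodendrocyte markers, 4 of the 5 astrocyte markers and 3 of the 5 neuron markers were called lower than in WT in each Ncf1-/- group, whereas the astrocyte marker Aldh1l1 was called higher in Igfbp2-treated NSCs (1.26 ± 0.45, edgeR adjusted p = 0.0277). The part of these markers in the differences between WT and Ncf1-/- NSCs was not tested.

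The 2 copies of 7SL are 300 bases long and lie on chromosome 12 of GRCm38, Rn7s1 (ENSMUSG00000099021) at chr12:69159295-69159594 on the plus strand and Rn7s2 (ENSMUSG00000099250) at chr12:69361182-69361481 on the minus strand. Their RNAs were the same in 300 of 300 bases of the GENCODE transcripts, and the 2 genes had equal expected counts in 12 of 12 libraries, as reads that fit both are split evenly. They are therefore 1 measurement, and 7SL below is their sum. A further annotated copy, Rn7s6 (ENSMUSG00000092746), shares a stretch of 173 bases with them and had 1.44 to 4.27 TPM. Reads of that stretch could be split over 3 genes.

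The 7SL RNA was the most abundant RNA in all 12 libraries, with the 2 copies ranked first, and on TMM-scaled counts it was higher in Igfbp2-treated Ncf1-/- NSCs than in either other group. CPM here were scaled by the trimmed mean of M values (TMM), which sets libraries to a common scale after trimming the genes with the most extreme levels and ratios. In WT NSCs the 7SL RNA had 104100, 90180, 68560 and 81140 CPM in replicates 9 to 12. In vehicle-treated Ncf1-/- NSCs it had 85560, 76300, 81070 and 58010 CPM in replicates 1 to 4, and in Igfbp2-treated Ncf1-/- NSCs 160300, 112800, 104800 and 173700 CPM in replicates 5 to 8. All 4 Igfbp2-treated libraries lay above all 8 others, replicates 5 and 8 far above and replicate 7 just above WT replicate 9, and the WT and vehicle-treated libraries overlapped, with vehicle-treated replicate 4 the lowest of the 12.

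The mean level of 7SL was 137900 ± 34220 CPM with Igfbp2, 75240 ± 12090 CPM with vehicle and 85990 ± 14970 CPM in WT (SD, n = 4 each). Igfbp2-treated against vehicle-treated, each copy differed by 0.87 ± 0.24 on the log2 scale (SE), which is 1.83-fold (edgeR quasi-likelihood test, adjusted p = 0.0189). In that comparison 4 of the 5 genes, or 3 of 4 RNAs with the copies of 7SL as 1, were called at an adjusted p under 0.05, all of them higher, beside 25% of all genes tested called in either direction (14.2% higher and 10.7% lower). For 3 of the 5 genes the groups did not overlap, all higher, beside 34.1% of all genes (19.3% higher and 14.7% lower). Without Igfbp2-treated replicate 8 the difference in 7SL was 0.71 and was not called (edgeR adjusted p = 0.0654). Against WT, Igfbp2-treated NSCs had 7SL higher by 0.68 ± 0.24 (SE; edgeR adjusted p = 0.0228). In that comparison 3 of the 5 genes, or 2 of 4 RNAs with the copies of 7SL as 1, were called. For the 5 genes this is about the share of all genes called in either direction, 62.4%. All of these calls were higher, beside 31.6% of all genes called higher and 30.8% lower. The groups did not overlap for the 2 copies of 7SL, beside 54.3% of all genes (27.8% higher and 26.6% lower). That call of 7SL was lost without WT replicate 12 (0.58, edgeR adjusted p = 0.0582), without Igfbp2-treated replicate 5 (0.55, edgeR adjusted p = 0.0752) and without replicate 8 (0.54, edgeR adjusted p = 0.0757), as well as with only the 2 groups compared (0.65, edgeR adjusted p = 0.0719), and 1 of the 5 genes was then called. On TPM the differences were smaller. With log2(TPM + 1) each copy differed by 0.25 between the treatments (limma adjusted p = 0.0339), a call lost with log2(TPM + 0.1) (limma adjusted p = 0.13), and by 0.21 between Igfbp2-treated and WT NSCs (limma adjusted p = 0.052). Relative to the median of all genes these differences were 0.55 and 0.46 on log2(TPM + 1), against 0.84 and 0.69 on TMM-scaled counts. Between vehicle-treated Ncf1-/- and WT NSCs the difference was −0.19 ± 0.23 (SE; edgeR adjusted p = 0.505), and −0.25 without WT replicate 12 (edgeR adjusted p = 0.394).

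The 7SK gene Rn7sk (ENSMUSG00000065037) is a single exon of 331 bases at chr9:78175303-78175633 on the minus strand of GRCm38. Its first 120 bases are shown because they hold the hairpin that binds the Hexim proteins, with each GATC in capitals. The letters were searched on the RNA strand, and 3 of them lie at bases 13 to 16, 42 to 45 and 64 to 67. Of 5627 GENCODE transcripts of 250 to 350 bases, 7.5% hold GATC 3 or more times.
Rn7sk: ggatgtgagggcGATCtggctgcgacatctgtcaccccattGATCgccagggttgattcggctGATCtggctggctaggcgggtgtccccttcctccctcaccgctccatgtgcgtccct

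The 7SK RNA was the next most abundant in every library, and edgeR called it in no comparison. In WT NSCs it had 29420, 28400, 24190 and 25930 CPM, in vehicle-treated Ncf1-/- NSCs 25010, 20510, 21280 and 14290 CPM, and in Igfbp2-treated Ncf1-/- NSCs 29750, 22590, 20550 and 33280 CPM, each in the order of the replicates. The Igfbp2-treated group overlapped both others, and the vehicle-treated group overlapped WT by its replicate 1 alone. Means were 26980 ± 2370, 20270 ± 4448 and 26540 ± 5977 CPM (SD, n = 4 each).

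The log2 difference was −0.41 ± 0.22 between vehicle-treated Ncf1-/- and WT NSCs (SE; edgeR adjusted p = 0.119), 0.39 ± 0.22 between the treatments (edgeR adjusted p = 0.202) and −0.02 ± 0.22 between Igfbp2-treated and WT NSCs (edgeR adjusted p = 0.93). DESeq2 called it lower in vehicle-treated NSCs than in WT (−0.42, DESeq2 adjusted p = 0.0383). Without WT replicate 12 the differences from WT were −0.46 and −0.12 (edgeR adjusted p = 0.102 and 0.673). On TPM the sign between the treatments turned. The 7SK RNA had 118500 ± 4473 TPM in WT, 96290 ± 8683 in vehicle-treated and 84040 ± 4758 in Igfbp2-treated NSCs (SD, n = 4 each), and limma on log2(TPM + 1) gave −0.30 for vehicle-treated against WT (adjusted p = 0.014), −0.19 between the treatments (limma adjusted p = 0.0892) and −0.50 for Igfbp2-treated against WT (limma adjusted p = 0.000482). TPM of a library sum to a fixed total, so that a larger share of 7SL leaves a smaller share for the other genes together. The part of this in the turned sign of 7SK was not tested. The median of all genes tested differed between the treatments by −0.30 on log2(TPM + 1) and by 0.04 on TMM-scaled counts, and relative to these medians 7SK differed by 0.10 and 0.35. Igfbp2-treated against WT, the median on log2(TPM + 1) was −0.25, and relative to it 7SK differed by −0.24.

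Rpph1 (ENSMUSG00000092837), the catalytic RNA of RNase P, is annotated as a ribozyme of 319 bases at chr14:50807449-50807767 on the minus strand. Rmrp (ENSMUSG00000088088), the related RNA of RNase MRP, has 271 bases at chr4:43492788-43493058, also on the minus strand. The first 120 bases of both are shown because RNase P-type RNAs share a conserved box in this region, and the capitals mark each match to GNAANNTC on the RNA strand. Rpph1 holds it at bases 7 to 14 and 60 to 67 and Rmrp at bases 67 to 74, and 26.9% of the 5627 transcripts of 250 to 350 bases hold it.
Rpph1: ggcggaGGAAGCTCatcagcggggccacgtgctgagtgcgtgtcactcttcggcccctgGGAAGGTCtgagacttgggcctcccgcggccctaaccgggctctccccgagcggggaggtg
Rmrp: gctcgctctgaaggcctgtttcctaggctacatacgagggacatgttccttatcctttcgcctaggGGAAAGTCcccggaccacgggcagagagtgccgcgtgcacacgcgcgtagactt

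The RNase P RNA was lower in vehicle-treated Ncf1-/- NSCs than in WT, and on counts with Igfbp2 it was higher than with vehicle and overlapped WT. It had 10910, 8847, 6667 and 7757 CPM in WT, 6583, 5067, 5738 and 3966 CPM in vehicle-treated and 12460, 8534, 6898 and 10180 CPM in Igfbp2-treated Ncf1-/- NSCs. All vehicle-treated libraries lay below all libraries of both other groups, by a narrow margin between vehicle-treated replicate 1 and WT replicate 11. Means were 8544 ± 1809, 5338 ± 1105 and 9516 ± 2374 CPM (SD, n = 4 each).

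Vehicle-treated against WT, Rpph1 fell by 0.68 on the log2 scale, to 0.625 of the WT level (SE 0.22, edgeR adjusted p = 0.019). It was the only one of the 5 genes that edgeR called in this comparison, a smaller share than the 57.2% of all genes called in either direction (28.9% higher and 28.2% lower). It was also the only one whose groups did not overlap, beside 51.2% of all genes (26.1% higher and 25% lower). The call was lost without WT replicate 9 (−0.54, edgeR adjusted p = 0.0582) and with library totals that leave out the 5 RNAs (−0.51, edgeR adjusted p = 0.0616), and it was kept without WT replicate 12 (−0.76, edgeR adjusted p = 0.0172). With Igfbp2 it was 0.83 ± 0.22 above vehicle (SE; 1.78-fold, edgeR adjusted p = 0.0179), a call lost without vehicle-treated replicate 2 (0.81, edgeR adjusted p = 0.053) or without Igfbp2-treated replicate 5 (0.65, edgeR adjusted p = 0.0634) or 8 (0.77, edgeR adjusted p = 0.0536). With log2(TPM + 1) that difference was 0.23 and was not called (limma adjusted p = 0.0989). Relative to the median of all genes it was 0.53 there and 0.80 on TMM-scaled counts. Igfbp2-treated against WT, the difference was 0.16 ± 0.22 on counts (edgeR adjusted p = 0.56) and 0.03 without WT replicate 12 (edgeR adjusted p = 0.915), and it had the other sign on TPM, at −0.31 (limma on log2(TPM + 1), adjusted p = 0.0296). The median of all genes tested was −0.25 on that scale, and relative to it Rpph1 differed by −0.05.

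On TMM-scaled counts the RNase MRP RNA was higher with Igfbp2 than in either other group. It had 3451, 2455, 2843 and 2571 CPM in WT, 3521, 2974, 2712 and 2238 CPM in vehicle-treated and 5557, 3938, 3384 and 6046 CPM in Igfbp2-treated Ncf1-/- NSCs. Of the 4 Igfbp2-treated libraries 3 lay above all others, and the remaining one, replicate 7, lay below WT replicate 9 and vehicle-treated replicate 1. Means were 2830 ± 445, 2861 ± 534.8 and 4731 ± 1272 CPM (SD, n = 4 each).

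Rmrp differed by 0.73 ± 0.20 between the treatments (SE; 1.65-fold, edgeR adjusted p = 0.0225) and by 0.74 ± 0.20 between Igfbp2-treated and WT NSCs (1.67-fold, edgeR adjusted p = 0.00667). The second call held without any single library, with a highest adjusted p of 0.0327 (edgeR, without WT replicate 10), and was 0.62 without WT replicate 12 (edgeR adjusted p = 0.028). The first was lost when any one of replicates 2, 3, 4, 5 or 8 was left out, with differences of 0.55 to 0.75 and edgeR adjusted p-values of 0.0503 to 0.0848. It was also lost with library totals (0.45, edgeR adjusted p = 0.0767) and with library totals that leave out the 5 RNAs (0.54, edgeR adjusted p = 0.0662). On log2(TPM + 1) the same differences were 0.07 (limma adjusted p = 0.615) and 0.25 (limma adjusted p = 0.0734). Relative to the median of all genes they were 0.37 and 0.50 there, and 0.69 and 0.75 on TMM-scaled counts. Vehicle-treated against WT, Rmrp differed by 0.02 ± 0.20 on counts (edgeR adjusted p = 0.952) and by −0.06 without WT replicate 12 (edgeR adjusted p = 0.839). The annotated gene Ccdc107 overlaps Rmrp by 159 bases on the other strand, and the sources used here do not say whether reads were counted by strand.

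**Figure D1:**
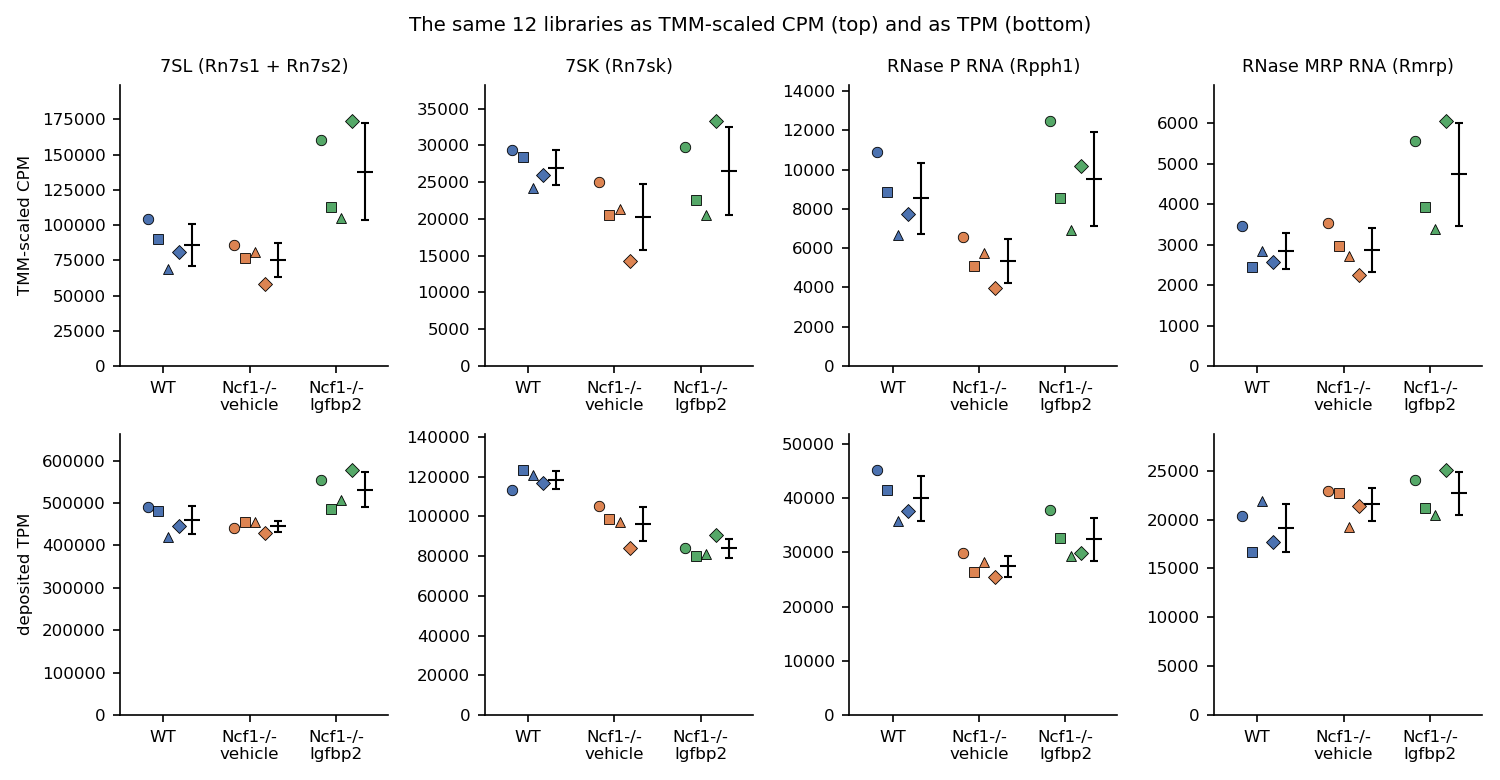
Level of each RNA in the 12 libraries, as TMM-scaled CPM (top row, linear axis) and as TPM (bottom row, linear axis), with 1 point per library and the mean ± SD of 4 libraries per group. In CPM the 4 Igfbp2-treated libraries lie above all others for 7SL, and the 4 vehicle-treated libraries lie below all others for Rpph1. In TPM, Rpph1 overlaps between the treatments, and 7SK is lower in both Ncf1-/- groups than in WT.

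**Figure D2:**
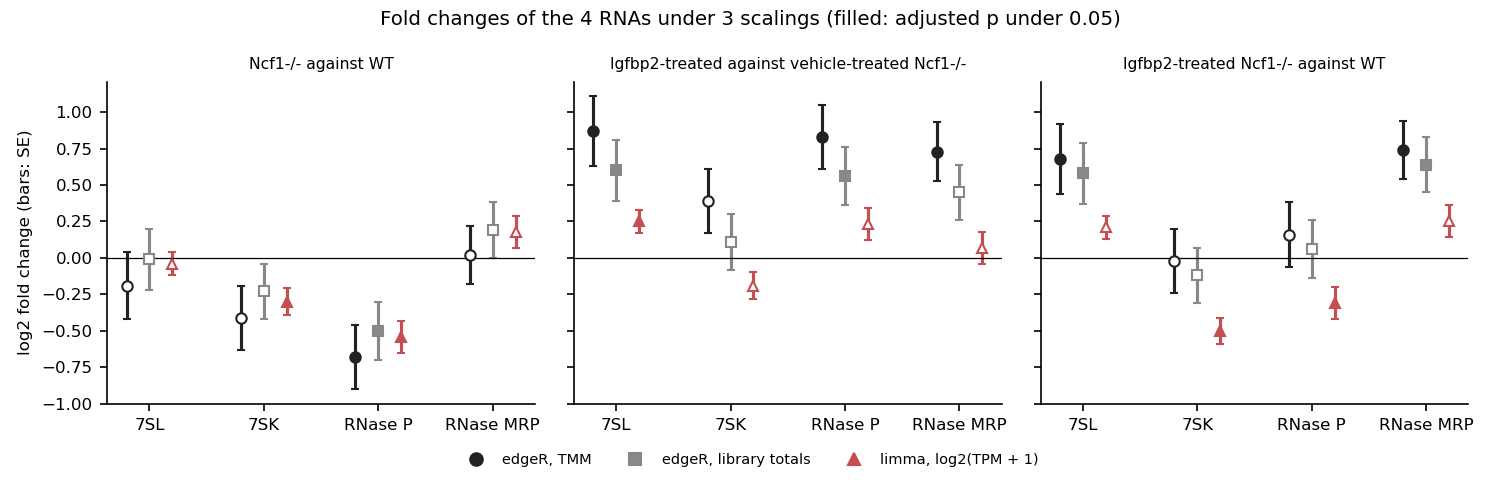
Log2 difference of each RNA in the 3 comparisons (axis, log2 scale) with its standard error, from edgeR with TMM factors, edgeR with library totals and limma on log2(TPM + 1). Filled points have an adjusted p under 0.05, and the differences between the treatments are larger on TMM-scaled counts (0.39 to 0.87) than on TPM (−0.19 to 0.25). The median of all genes tested between the treatments was 0.04 on TMM-scaled counts and −0.30 on log2(TPM + 1).

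The mean share of a library that these RNAs took was highest with Igfbp2 and lowest with vehicle, and WT overlapped both other groups. Of the expected counts, the 5 genes held 10.5% to 14.2% in WT, 8.82% to 13.0% in vehicle-treated and 13.2% to 19.9% in Igfbp2-treated NSCs, with means of 12.2 ± 1.62%, 11.5 ± 1.83% and 16.3 ± 3.44% (SD, n = 4 each). Without WT replicate 12 the WT means were 12.4% of the counts and 64.3% of TPM. The share of TPM was several times larger, at 63.7 ± 3.46% in WT, 59.1 ± 2.035% with vehicle and 67.0 ± 4.89% with Igfbp2. It is larger because TPM divides by length and these RNAs are short. The length used is an effective length, the number of positions at which a fragment fits into the RNA. For 7SL, RSEM used effective lengths of 114.2 to 139.4 bases in place of 300, for 7SK 143.0 to 169.4 in place of 331, for Rpph1 131.7 to 157.7 in place of 319 and for Rmrp 88.44 to 112.0 in place of 271. All were shortest in vehicle-treated replicate 4, the library with the largest median gap between length and effective length over all genes (191.0 bases, against 162.9 to 180.7 in the other 11). That gap was 171.6 to 191.0 bases with vehicle, 162.9 to 168.6 with Igfbp2 and 164.7 to 173.1 in WT, without overlap between the treatments. Effective lengths of 7SL did not overlap between the treatments either, at 114.2 to 130.8 with vehicle and 134.0 to 139.4 with Igfbp2. The part of fragment length in the differences between the treatments was not tested. With the annotated length in place of the effective length, the 5 genes held 49.6 ± 3.78% of TPM in WT, 43.8 ± 3.70% in vehicle-treated and 54.3 ± 5.54% in Igfbp2-treated NSCs. With 1 effective length per gene for all libraries the shares were 63.9 ± 3.29%, 57.9 ± 3.26% and 67.2 ± 4.63%. All these shares are descriptions, since the share chose the genes.

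Within a library the order of the RNAs was the same everywhere: 7SL, 7SK, RNase P RNA and RNase MRP RNA in 12 of 12 libraries, on TPM and on counts alike. The share of TPM held by 7SL was 45.9 ± 3.28% in WT, 44.5 ± 1.25% in vehicle-treated and 53.1 ± 4.17% in Igfbp2-treated NSCs (SD, n = 4 each). The shares of 7SK were 11.9%, 9.63% and 8.40%, those of Rpph1 3.999%, 2.75% and 3.24%, and those of Rmrp 1.91%, 2.16% and 2.27%, in the same order of groups. The WT shares without replicate 12 were 46.4%, 11.9%, 4.08% and 1.96%. Neighbours in this order stood apart by more than their spread in each group, the closest being RNase P and RNase MRP RNA with 27460 ± 1955 and 21560 ± 1697 TPM in vehicle-treated NSCs. The next gene by mean TPM, Gm26917 (chosen after its values were seen), had 3410 to 14290 TPM, and the 5 genes held ranks 1 to 5 in every library.

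**Figure D3:**
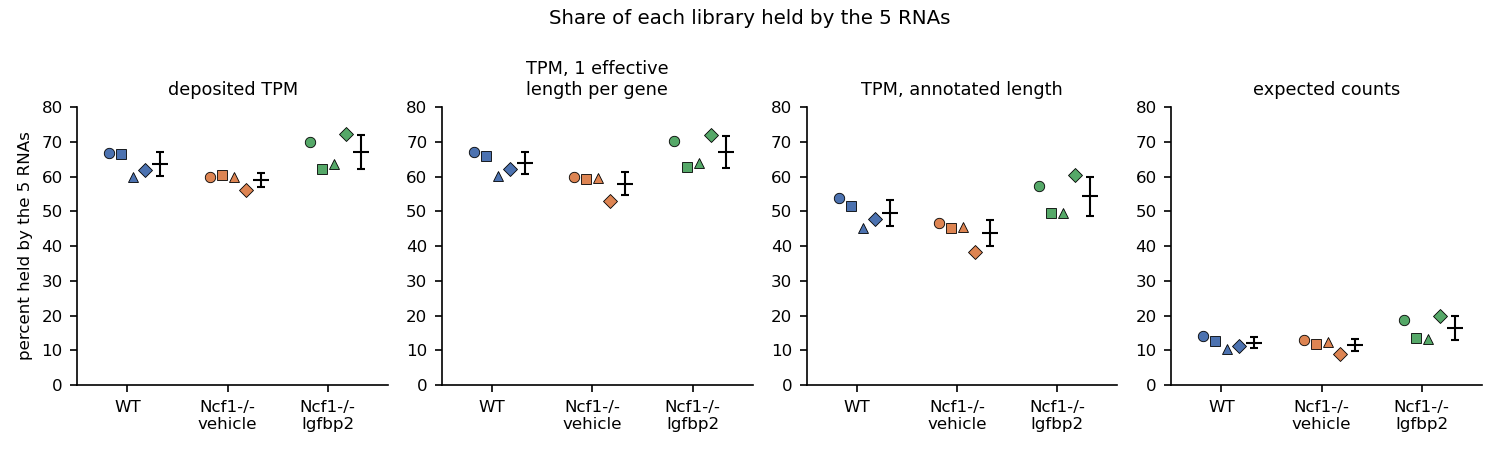
Percent of each library held by the 5 genes (linear axes), from the deposited TPM, from TPM rebuilt with 1 effective length per gene, from TPM rebuilt with the annotated length and from the expected counts, with 1 point per library and the mean ± SD of 4 libraries. The Igfbp2-treated mean is the highest on each of the 4 scales, from 67.2% at 1 effective length per gene down to 16.3% of the counts.

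Ratios between the RNAs need no scaling between libraries. Of the 18 tests of the 6 distinct pairs 10 had no overlap between the groups, and none passed 0.05 after adjustment. The CPM of single genes had no overlap for 51.2% of all genes tested in vehicle-treated against WT NSCs. It was 34.1% between the treatments and 54.3% for Igfbp2-treated against WT. Ratios between other genes were not tested. The ratio of 7SL to 7SK counts was 3.538, 3.175, 2.834 and 3.129 in WT, 3.421, 3.721, 3.809 and 4.06 in vehicle-treated and 5.39, 4.993, 5.101 and 5.221 in Igfbp2-treated NSCs. The Igfbp2-treated libraries, which varied widely in the level of either RNA, lay close together here and above all others. On the log2 scale the ratio was 0.47 ± 0.06 higher with Igfbp2 than with vehicle and 0.71 ± 0.07 higher than in WT (SE; two-sided exact permutation p = 0.0286 each, the smallest that 4 against 4 libraries can give). The vehicle-treated ratio was 0.25 ± 0.08 above WT, with overlap (exact permutation p = 0.0571). The differences from WT were 0.24 with vehicle and 0.71 with Igfbp2 when WT replicate 12 was left out.

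The RNase P and RNase MRP RNAs, which work with a shared set of proteins, stood in another proportion in WT than in both Ncf1-/- groups. Rpph1 counts were 3.16, 3.603, 2.345 and 3.018 times those of Rmrp in WT, 1.87, 1.704, 2.116 and 1.772 times in vehicle-treated and 2.242, 2.167, 2.038 and 1.683 times in Igfbp2-treated NSCs. All WT libraries lay above all Ncf1-/- libraries. The log2 ratio differed from WT by −0.69 ± 0.15 with vehicle and by −0.57 ± 0.16 with Igfbp2 (SE; exact permutation p = 0.0286 each), and it differed by 0.12 ± 0.11 between the treatments (exact permutation p = 0.343). Those from WT were −0.69 and −0.56 without WT replicate 12.

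Of the other pairs, 7SL to Rpph1 also differed between WT and both Ncf1-/- groups, with means of 10.1 ± 0.40 in WT, 14.2 ± 0.889 in vehicle-treated and 14.6 ± 1.95 in Igfbp2-treated NSCs (SD, n = 4 each). It differed by 0.49 ± 0.05 and 0.52 ± 0.10 from WT with no overlap (exact permutation p = 0.0286 each) and by 0.03 ± 0.11 between the treatments (exact permutation p = 0.771). With WT replicate 12 left out, those from WT were 0.50 and 0.54. The ratio of 7SK to Rmrp was the one ratio without overlap in all 3 comparisons, at 9.67 ± 1.47 in WT, 7.06 ± 0.607 in vehicle-treated and 5.67 ± 0.314 in Igfbp2-treated NSCs, with log2 differences of −0.45, −0.31 and −0.76 (exact permutation p = 0.0286 each), of which those from WT were −0.42 and −0.74 without WT replicate 12. The ratio of 7SK to Rpph1 was lower with Igfbp2 than with vehicle, 2.82 against 3.79 (log2 difference −0.43 ± 0.11, exact permutation p = 0.0286), and overlapped WT (3.22) in both comparisons. The ratio of 7SL to Rmrp, the most and the least abundant of the family, had 24.1 to 36.7 in WT, 24.3 to 29.9 with vehicle and 28.6 to 31.0 with Igfbp2, and differed by −0.20 ± 0.14, 0.15 ± 0.07 and −0.05 ± 0.13 (SE; exact permutation p = 0.257, 0.114 and 0.714). When WT replicate 12 was left out, the differences from WT with vehicle and with Igfbp2 were 0.26 and −0.17 for 7SK to Rpph1 and −0.18 and −0.03 for 7SL to Rmrp.

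Over the 18 tests the smallest possible p gave a Benjamini-Hochberg adjusted value of 0.0514 (exact permutation). With the copies of 7SL kept apart there were 10 pairs and 30 tests, and the adjusted value was 0.0612 (exact permutation). No ratio therefore passed 0.05 after adjustment, and this design cannot give a smaller raw p. Without WT replicate 12, 4 and 6 of the 10 pairs had no overlap between vehicle-treated or Igfbp2-treated and WT NSCs, the same numbers as with it. Leaving out a library cannot make separate groups overlap, so that these numbers could only stay or rise. On TPM, which change the ratio only through the effective lengths, the same differences had no overlap except that of 7SK to Rmrp between the treatments (−0.27 ± 0.08, exact permutation p = 0.0571).

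**Figure D4:**
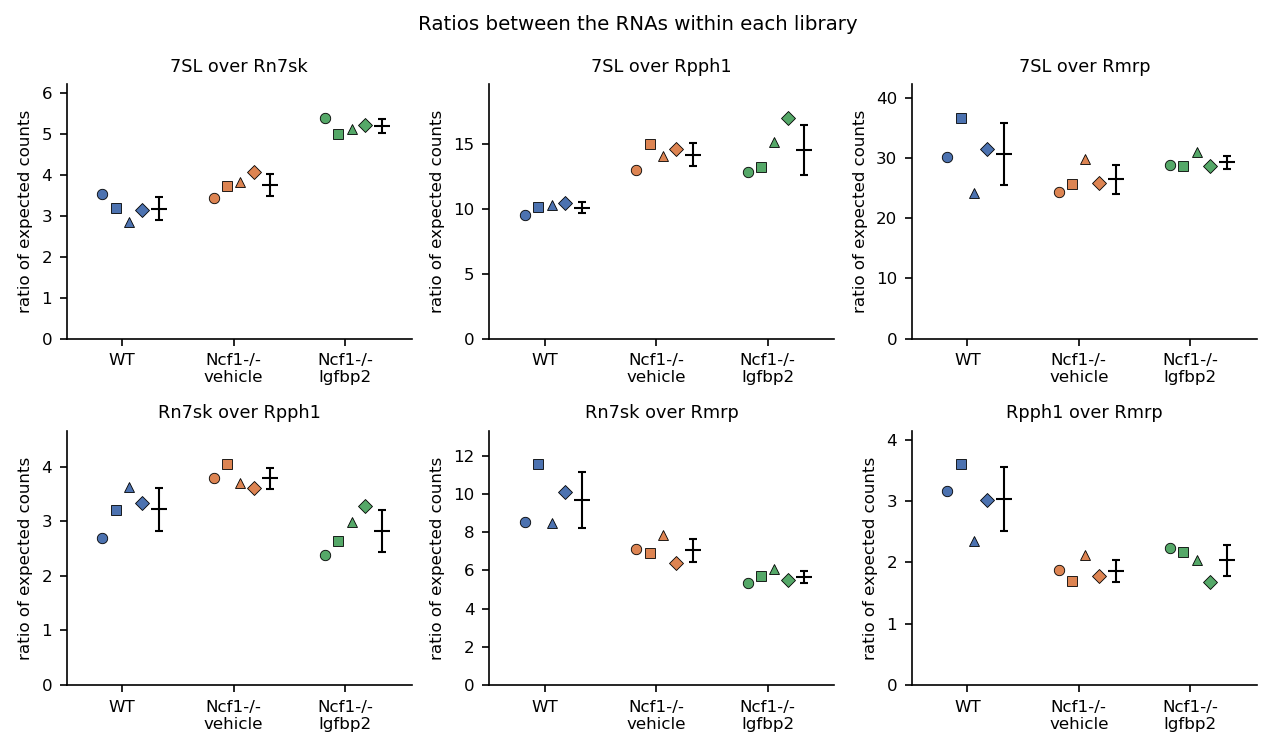
Ratio of the expected counts of each of the 6 pairs of RNAs (linear axes), with 1 point per library and the mean ± SD of 4 libraries per group. The 7SL to 7SK ratio is 4.99 to 5.39 in the Igfbp2-treated libraries against at most 4.06 in all others, and Rpph1 to Rmrp is at least 2.345 in WT against at most 2.242 in both Ncf1-/- groups.

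Within the groups the RNAs varied together. After the differences between group means were removed, Pearson correlations of log2 CPM (n = 12 libraries) were 0.941 for 7SL and 7SK, 0.922 for 7SL and Rpph1, 0.848 for 7SL and Rmrp, 0.871 for 7SK and Rpph1, 0.874 for 7SK and Rmrp and 0.802 for Rpph1 and Rmrp. These are descriptions, since all the points share a library, its depth and its fragment lengths.

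The genes whose levels over the 12 libraries were most like those of the family were mostly short noncoding RNAs. Among 11167 other genes whose mean CPM was 5 or more, the 3 with the highest correlation with 7SL were Gm26448, annotated as a snoRNA (r = 0.953), and 2 annotated miRNA genes with equal counts, AC157822.2 and AC099934.2 (r = 0.927 each). For 7SK they included the snoRNA Snora74a (r = 0.902) and Srp14, an SRP protein (r = 0.89). For Rpph1 they were Snora74a (r = 0.95), BC004004 (r = 0.942) and Snora73a, a snoRNA (r = 0.93). For Rmrp they were the scaRNA Gm25395 (r = 0.941), the misc_RNA gene Gm24105 (r = 0.937) and Ndufa7, a subunit of complex I (r = 0.929).

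Other short genes were mostly not called on counts. Their median difference still lay above that of all genes in both comparisons of the Igfbp2-treated group. Those tested were of mixed kinds, with 46 snoRNA genes, 46 processed pseudogenes, 37 protein-coding genes, 26 snRNA genes and 23 miRNA genes as the most frequent annotations. Of the 244 other genes tested of at most 400 bases, 54 were higher and 4 lower with Igfbp2 than with vehicle (edgeR adjusted p under 0.05), beside 14.2% higher and 10.7% lower of all genes tested, with a median log2 difference of 0.45 beside 0.04. Igfbp2-treated against WT, 80 were higher and 16 lower, beside 31.6% and 30.8% of all genes, with a median of 0.44 beside −0.01. Vehicle-treated against WT, 48 were higher and 31 lower, beside 28.9% and 28.2% of all genes, with a median of −0.08 beside 0.02. These counts against WT were 71 and 17, and 42 and 41, without WT replicate 12. Of all 15992 genes tested without it they were 4570 and 5386, and 4290 and 4554. The direction between the treatments turned on log2(TPM + 1), with 1 higher and 63 lower by limma and a median of −0.25 beside −0.30. Of all 15706 genes, limma called 157 higher and 6056 lower there. From a list of other small structural RNAs, 13 were tested and 5 were called higher with Igfbp2 than with vehicle, beside 14.2% of all genes, led by the small Cajal body RNA gene Scarna6 (1.0 ± 0.24, edgeR adjusted p = 0.0107), the U3 snoRNA gene Rnu3b1 (0.86 ± 0.27, edgeR adjusted p = 0.0376) and the snoRNA gene Snora73a (0.86 ± 0.20, edgeR adjusted p = 0.0083), with a list median of 0.47. On log2(TPM + 1) that median was −0.23 beside −0.30 over all genes, and 0 of the 13 were higher and 1 lower by limma. Vehicle-treated against WT, 1 of the 13 was higher, the telomerase RNA Terc (0.63 ± 0.24, edgeR adjusted p = 0.0413), and 4 were lower, led by Snord17 (−0.80 ± 0.30, edgeR adjusted p = 0.0334). Igfbp2-treated against WT, 3 were higher and 0 lower, with a median of 0.37. Of the other RNA polymerase III transcripts listed, the Y RNA genes Rny1 and Rny3 were tested and not called (edgeR; log2 differences of −0.37 to 1.13). Long RNAs of the nucleus went the other way, as 4 of 4 were lower with Igfbp2 than with vehicle, led by Meg3 (−1.83 ± 0.58, edgeR adjusted p = 0.0348), which was under 1 CPM in both groups, Neat1 (−1.49 ± 0.28, edgeR adjusted p = 0.00356) and Malat1 (−0.99 ± 0.14, edgeR adjusted p = 0.00091). On log2(TPM + 1) 3 of the 4 were lower by limma.

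Of 9 genes of the SRP and its receptor that were tested, 2 were higher and 0 lower with Igfbp2 than with vehicle: Srp68 (0.45 ± 0.08, edgeR adjusted p = 0.00214) and the receptor subunit Srpr (0.21 ± 0.06, edgeR adjusted p = 0.032). All genes were called higher in 14.2% and lower in 10.7%. The list median was 0.14 beside 0.04 over all genes. Vehicle-treated against WT, 3 were higher, Srp9 (0.39 ± 0.07, edgeR adjusted p = 0.000238), Srpr (0.36 ± 0.06, edgeR adjusted p = 0.000388) and Srp72 (0.19 ± 0.07, edgeR adjusted p = 0.025), beside 28.9% of all genes, and the median was 0.19 beside 0.02. Igfbp2-treated against WT, 4 were higher, led by Srpr (0.57), Srp68 (0.44) and Srp9 (0.40), beside 31.6% of all genes, with a median of 0.24 beside −0.01. These directions rest on the count scale: on log2(TPM + 1), limma called 3 of the 9 lower and 0 higher between the treatments, with a median of −0.34 beside −0.30, and with library totals edgeR called 0 higher and 1 lower. Of all 15706 genes, limma called 6056 lower and 157 higher there, and edgeR with library totals 648 higher and 5258 lower.

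The proteins of the 7SK particle and of P-TEFb were called in both directions between the genotypes, in shares that can be read beside those of all genes. Vehicle-treated against WT, 2 of 7 were higher, Larp7, which holds the 3′ end of 7SK (0.85 ± 0.10, edgeR adjusted p = 1.57e-05), and Hexim2, an inhibitor of P-TEFb (0.52 ± 0.13, edgeR adjusted p = 0.00515). Lower were 3, the cyclins of P-TEFb Ccnt1 (−0.46 ± 0.10, edgeR adjusted p = 0.00167) and Ccnt2 (−0.34 ± 0.07, edgeR adjusted p = 0.00133), and Mepce, which caps the 5′ end of 7SK (−0.26 ± 0.07, edgeR adjusted p = 0.00942). All genes were called higher in 28.9% and lower in 28.2% there, and the median was −0.20 beside 0.02. With Igfbp2, 1 of 7 was lower than with vehicle, Ccnt2 (−0.37 ± 0.07, edgeR adjusted p = 0.00458), beside 10.7% of all genes, with a median of −0.08 beside 0.04. Igfbp2-treated against WT, 2 were higher, Larp7 (0.76) and Hexim2 (0.62), and 4 were lower, led by Ccnt2 (−0.71), Hexim1 (−0.46) and Mepce (−0.34), beside 31.6% and 30.8% of all genes, with a median of −0.33 beside −0.01. By limma on log2(TPM + 1), 5 of the 7 were called lower with Igfbp2 than with vehicle and 0 lower with vehicle than in WT. Of all 15706 genes, limma called 6056 and 2863 lower in these comparisons.

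The proteins of RNase P and RNase MRP were mostly not called. Of 12 gene entries tested for 11 symbols, vehicle-treated against WT, 4 were higher and 0 lower, led by Rpp40 (0.85 ± 0.20, edgeR adjusted p = 0.00268), Rpp30 (0.70 ± 0.11, edgeR adjusted p = 0.000177) and Rpp21 (0.45 ± 0.12, edgeR adjusted p = 0.0072), beside 28.9% higher and 28.2% lower of all genes, with a median of 0.25 beside 0.02. Between the treatments, Rpp25 was higher (1.01 ± 0.31, edgeR adjusted p = 0.0315), at a mean of 1.70 against 0.841 CPM, and Pop4 was lower (−0.34 ± 0.09, edgeR adjusted p = 0.0189), beside 14.2% and 10.7% of all genes, with a median of −0.05 beside 0.04. Igfbp2-treated against WT, 5 were higher and 0 lower, led by Rpp25 (1.33), Rpp40 (0.70) and Pop5 (0.55), beside 31.6% and 30.8% of all genes, with a median of 0.17 beside −0.01. On log2(TPM + 1), limma called 4 higher with vehicle than in WT, and in both comparisons of the Igfbp2-treated group none higher and 7 and 4 lower. Of all 15706 genes it called 3627 higher and 2863 lower with vehicle than in WT. It called 157 higher and 6056 lower between the treatments, and 1868 and 6689 for Igfbp2-treated against WT.

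RNA polymerase III and the factors that bring it to these genes were measured in full, 33 of 33. Vehicle-treated against WT, 9 were higher and 10 lower, about the same shares as the 28.9% and 28.2% of all genes, with a median of 0.08 beside 0.02. The largest rises were those of Polr3g, a subunit of the polymerase (0.91 ± 0.16, edgeR adjusted p = 0.000341), Ssb, the La protein that binds the 3′ ends of new polymerase III transcripts (0.74 ± 0.10, edgeR adjusted p = 2.65e-05), and Snapc2, a subunit of the complex that binds the promoters of 7SK, RNase P and RNase MRP RNA (0.54 ± 0.11, edgeR adjusted p = 0.000817). The largest falls were those of Pou2f1, the octamer-binding factor Oct-1 (−1.04 ± 0.12, edgeR adjusted p = 1.29e-05), Brf1, a subunit of TFIIIB (−0.69 ± 0.09, edgeR adjusted p = 2.03e-05), and Polr3a, the largest subunit (−0.58 ± 0.10, edgeR adjusted p = 0.000167).

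Between the treatments 2 of the 33 were higher and 4 lower, beside 14.2% and 10.7% of all genes. Gtf3c1, a subunit of TFIIIC (0.46 ± 0.09, edgeR adjusted p = 0.00307), and Snapc1 (0.35 ± 0.09, edgeR adjusted p = 0.0152) were higher, and Polr3k (−0.48 ± 0.09, edgeR adjusted p = 0.00265), Snapc3 (−0.44 ± 0.10, edgeR adjusted p = 0.0109) and the TATA-binding protein Tbp (−0.40 ± 0.09, edgeR adjusted p = 0.00639) led those that were lower. The median was −0.05 beside 0.04. Igfbp2-treated against WT, 9 were higher, led by Polr3g (0.76), Snapc2 (0.61) and Ssb (0.59), and 11 were lower, led by Pou2f1 (−1.11), Brf1 (−0.71) and Snapc5 (−0.48), beside 31.6% and 30.8% of all genes, with a median of −0.04 beside −0.01. On log2(TPM + 1) limma called 22 lower and 0 higher between the treatments, and edgeR with library totals 18 lower and 0 higher. Of all 15706 genes, limma called 6056 lower and 157 higher there, and edgeR with library totals 5258 lower and 648 higher. Without WT replicate 12 the calls against WT for the polymerase III list were 8 higher and 10 lower with vehicle. With Igfbp2 they were 5 and 11. In the same order they were 2 and 0 and 4 and 0 for the SRP list, and 2 and 4 and 2 and 4 for the 7SK list. For the RNase P and MRP list they were 3 and 0 and 4 and 1. Of all 15992 genes tested they were 4290 and 4554, and 4570 and 5386.

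Rpph1 lies head to head with Parp2, a protein gene of DNA repair that starts 73 bases away on the other strand of chromosome 14. The stretch between them, chr14:50807768-50807840, is shown because both genes start from it. It is written on the plus strand, that of Parp2, from RefSeq's GRCm38.p6 promoter of Parp2. The capitals mark TATAA, 29 to 33 bases upstream of Rpph1, which reads TTATA on the strand of Rpph1.
Rpph1 to Parp2: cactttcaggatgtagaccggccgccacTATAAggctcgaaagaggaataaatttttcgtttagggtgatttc

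The promoter window of Parp2, chr14:50807666-50807965, was searched on both strands. It also holds ATTTGCAT, the octamer, on the plus strand, 93 to 100 bases upstream of Rpph1. The octamer is in 1.74% and TATAA in 24.9% of the 32851 promoter windows of that length, and RefSeq's window of Ccdc107, chr4:43493115-43493414, holds both as well. These matches are a description of the letters. Parp2 was higher in vehicle-treated Ncf1-/- NSCs than in WT (0.81 ± 0.10, edgeR adjusted p = 1.63e-05), at 19.2 ± 0.335 against 10.9 ± 0.88 CPM (SD, n = 4 each), in the comparison in which Rpph1 was lower. It was also higher in Igfbp2-treated NSCs than in WT (0.64 ± 0.10, edgeR adjusted p = 0.000105) and differed by −0.16 ± 0.10 between the treatments (edgeR adjusted p = 0.23), in the comparison in which Rpph1 was higher. Ccdc107, which overlaps Rmrp, was higher than in WT with vehicle (0.74 ± 0.13, edgeR adjusted p = 0.000301) and with Igfbp2 (1.02 ± 0.13, edgeR adjusted p = 2.06e-05), and differed by 0.28 ± 0.13 between the treatments (edgeR adjusted p = 0.116). Any 2 of the 3 comparisons share a group of libraries, so that the differences given side by side are not independent of one another.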

How the data were processed

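RNA of 12 NSC cultures was measured, with 4 cultures in each of the 3 groups that the labels give. Per the submitters' processing notes, reads were mapped with Bowtie2 to GRCm38 and quantified with RSEM. Versions, annotation release and strand setting are not given in the sources used here. The authors deposited the expected counts per gene without normalization, and 33.8% of those above 0 are not whole. The TPM values were deposited as RSEM made them, relative to a fixed sum per library. FPKM values were deposited too and not used. Lengths and effective lengths are per the file headers. The merged table holds a score of the authors, which equals TPM times the number of transcripts for 257083 of 257083 values. It served for gene symbols. Per-sample columns that could not be mapped numbered 0.

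After rounding, the counts were fitted in R 4.3.3 by edgeR 4.0.16, and log2 TPM by limma 3.58.1 (for edgeR: filterByExpr, TMM factors, quasi-likelihood fit with a mean per group over 12 libraries, Benjamini-Hochberg adjustment over all genes tested, threshold 0.05). The scripts were tested on simulated data. The study's own test, one-way analysis of variance on TPM with Tukey comparisons, was an alternative, as were DESeq2 1.42.0, library totals with and without the 5 RNAs, no filter, only the 2 groups compared, limma on log2(TPM + 1) and log2(TPM + 0.1), fixed effective lengths, the culture pair as a block and each library left out. Ratios were tested by exact permutation in Python 3.11.15 with SciPy 1.17.1. At the depth of 18201622 to 34086554 counts per library, counting error on these RNAs is small beside the spread between cultures.

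The members, lists and tests were chosen with earlier results of these data known. Named are the 5 RNAs, the 3 genes most correlated with each, Parp2 and Ccdc107, at most 3 genes called higher and 3 lower from each list, and checks of the labels. A gene named by this rule and a sequence are not reported here. The lists came from textbook knowledge. The methods say that numbers pair the Ncf1-/- cultures by pup. The labels do not name the pairs, so that they were taken in the order of the replicates: 1 with 5, 2 with 6, 3 with 7 and 4 with 8. With group means taken off, correlations were −0.11 to 0.1 over the 4 pairs so taken and −0.355 to 0.383 over 12 other pairs. Replicates were not duplicates: the closest, vehicle-treated 2 and 3, still gave 4.63 for chi-square over its degrees of freedom. Sequences and positions are from GENCODE M21 (GRCm38) transcripts, whose lengths equal those in the files, and from RefSeq's GRCm38.p6 promoter table.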

Additional observations from a re-analysis of the deposited data

Results flagged for a closer look

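Each measure of a library was compared within its group of 4 by the gap between an extreme library and its nearest neighbour, divided by the range of the group. Of 72 groups 8 held a library beyond the limit of Dixon's test, which chance passes in about 1 in 20 groups.

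Of the family, vehicle-treated replicate 4 had the lowest share of TPM held by the 5 RNAs, 56.02%, against 59.92% to 60.33% in the other 3. Its effective lengths were also the shortest of the 12 libraries. The ratio of 7SL to Rmrp counts was highest in Igfbp2-treated replicate 7, at 30.98 against 28.64 to 28.86 in the other 3.

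The 2 mitochondrial rRNAs, which ribosome depletion should remove, stood apart in 1 library of each group, at a summed 35.17 TPM in WT replicate 9, 200.2 TPM in vehicle-treated replicate 1 and 232.1 TPM in Igfbp2-treated replicate 6, against at most 10.27 TPM in the other 9. WT replicate 9 and vehicle-treated replicate 1 were also the highest of their groups for each of the 4 RNAs in CPM, and Igfbp2-treated replicate 6 was not.

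Among the checks of the labels, WT replicate 12 stood apart by its Y-linked genes at 6.458 CPM and by Xist at 290.8 CPM. Igfbp2-treated replicate 5 had the lowest Xist of its group, 165.7 CPM against 264.6 to 274.6 CPM. Whether these libraries came from the stated animals was not tested.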

How the results depend on the processing

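The counts of the 5 RNAs called depended on the scale. Vehicle-treated against WT, 1 was called by edgeR, 2 by DESeq2, limma on log2(TPM + 1), the study's own test and limma with 1 effective length per gene, and 0 with library totals that leave out the 5 RNAs (edgeR, 1 at an unadjusted p under 0.05). Of all genes, edgeR called 8978 of 15706, DESeq2 9029 of 15649, limma 6490 of 15706 and the study's own test 4329 of 27880. With 1 effective length 6662 of 15706 were called, and with library totals without the 5 RNAs 9277. Between the treatments, 4 of the 5 were called by edgeR, 3 with library totals with or without the 5 RNAs (Rmrp lost), 2 by limma on log2(TPM + 1) and with 1 effective length, 0 by limma on log2(TPM + 0.1) (0 at an unadjusted p under 0.05) and 0 by the study's own test (2 unadjusted). Of all 15706 genes, edgeR called 3923, and 5906 and 4735 with library totals with and without the 5 RNAs. Limma called 6213 and 7866 with log2(TPM + 1) and 1 effective length, and 6339 with log2(TPM + 0.1). The study's own test called 2149 of 27880. Igfbp2-treated against WT, 3 of the 5 were called by edgeR, and 1 with only the 2 groups compared (Rmrp). Not the same genes were called on TPM: 1 with log2(TPM + 0.1) or the study's own test (Rn7sk, −0.50), and 2 by limma on log2(TPM + 1) and with 1 effective length (Rn7sk and Rpph1), all lower and none of them among the 3 of edgeR. Relative to the median of all genes on log2(TPM + 1), Rn7sk differed by −0.24 and Rpph1 by −0.05. Of all 15706 genes, edgeR called 9801, and limma 8557 with log2(TPM + 1), 8667 with 1 effective length and 8989 with log2(TPM + 0.1). With only the 2 groups 8962 of 15031 were called, and by the study's own test 5592 of 27879. Leaving out 1 library gave 0 to 1, 0 to 4 and 1 to 3 calls of the 5 genes, with 0 between the treatments without Igfbp2-treated replicate 8 (4 at an unadjusted p under 0.05), beside 2783 of 15956 genes. Ratios without overlap then numbered 4 to 7 (7 without WT replicate 11), 4 to 6 and 6 to 6 of the 10 pairs, numbers that could only stay or rise. The replicate block by culture pair, with the pairs assumed from the order of the replicates, kept 4 calls between the treatments (7SL 0.80, Rpph1 0.78, Rmrp 0.65). It changed no call, beside 5434 of 15101 genes called. Counting Rn7s1 and Rn7s2 as 1 gene, chosen after seeing the data, left 1, 3 and 2 calls of 4.

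Directions turned in these cases. Between the treatments, Rn7sk was −0.19 with limma at both pseudocounts, −0.20 in the study's own test and −0.18 with 1 effective length. Igfbp2-treated against WT, Rpph1 was −0.31 in the 3 limma fits (adjusted p = 0.0313 with 1 effective length) and −0.30 in the study's own test. The median of all genes tested was −0.25 there on log2(TPM + 1). With 1 library left out, Rmrp spanned −0.10 to 0.12 (vehicle-treated against WT), Rn7sk −0.16 to 0.02 and Rpph1 −0.06 to 0.29 (Igfbp2-treated against WT), the ratio of 7SL to Rpph1 −0.05 to 0.09 (between the treatments) and that of 7SL to Rmrp −0.16 to 0.04 (Igfbp2-treated against WT). The cause was not tested. The annotated length moved the share of the 5 RNAs in TPM to 49.57% in WT, 43.82% with vehicle and 54.25% with Igfbp2, and leaving out 1 library gave 62.62% to 64.98%, 58.64% to 60.07% and 65.27% to 68.67%.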
